A study of Mus musculus with 10 samples.

Results

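Haploid epiblast stem cells (EpiSC) and haploid embryonic stem cells (ESC) of the mouse represent the primed and the naive state of pluripotency, and their transcriptomes were compared by RNA sequencing of 3 of the 10 libraries of the series. The libraries were chosen by their labels. The EpiSC side held haEpi1 and haEpi5, each labelled haploid and p53-KO. The ESC side held 1 library, labelled haploid and wild type. All 3 were labelled as strain 129SV, and RNA was taken up on poly-T beads before library preparation. The p53 label and the cell type change together between the sides and cannot be told apart within these libraries. Diploid wild-type EpiSC (n = 2, titled Epi_fema and Epi_male), a diploid wild-type ESC library and a library of embryonic fibroblasts (MEF) of the same strain served for comparison. The other libraries of the series were diploid EpiSC labelled p53-KO, haploid epiblast-like cells (EpiLC) labelled p53-KO and haploid wild-type EpiLC, 1 library each. Nothing in the labels says whether haEpi1 and haEpi5 came from separate embryos, so p-values measure the spread between the libraries as sequenced. The ploidy labels were not tested by these data.

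Naive ESC stand for the pre-implantation epiblast and are kept by LIF-STAT3 signalling and a network of factors that includes Esrrb, Klf4, Tfcp2l1 and Nanog. EpiSC stand for the post-implantation epiblast and depend on FGF and on Nodal or activin signalling. Both states share Pou5f1 and Sox2. Many germline genes are methylated at their promoters as the epiblast passes implantation. The enzymes Dnmt3a and Dnmt3b and their cofactor Dnmt3l take part in setting this methylation. Haploid cells carry 1 copy of each gene, which is why they are used in genetic screens.

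The letters of some promoters are given first, because the germline genes were the list that fell most completely. RefSeq windows on build GRCm38.p6, from 250 bases before to 50 after each start, were found for 23 of the 26 germline genes tested. The promoter of Dazl, which codes for a germ cell RNA-binding protein, is shown from the 250 bases before its start at chr17:50293621-50293870 on the minus strand, with each CG in capitals.

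Dazl: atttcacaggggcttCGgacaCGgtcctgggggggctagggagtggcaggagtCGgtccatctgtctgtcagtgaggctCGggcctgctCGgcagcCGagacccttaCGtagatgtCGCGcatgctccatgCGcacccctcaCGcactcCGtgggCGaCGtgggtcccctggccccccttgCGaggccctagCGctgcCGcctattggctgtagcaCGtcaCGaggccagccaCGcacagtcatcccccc

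The Dazl stretch held 20 CG. Across the 23 germline genes the 300-base window held a median of 19 CG per gene, against a median of 20 over the 13248 tested genes with a window. The letters CACGTG, an E-box that reads the same on both strands, were in the window of 13 of the 23 germline genes (56.5%). Over all tested genes with a window the share was 10.9%, and over the genes that fell in haploid EpiSC it was 11.7%. Among the 21 germline genes with a window that fell, 12 held the E-box (57.1%), and Dazl held none. The letters GCGGGAA, searched on both strands, were in 5 of the 23 (21.7%) against 8.96% of tested genes. These are matches of letters and not sites of binding. For 8 of these genes 1 E-box each is shown with 12 bases on either side, 5′ to 3′ along the gene, with CACGTG in capitals; Fkbp6, Sycp3 and Tdrd9 each hold another.

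Ddx4, chr13:112652322-112652351, minus strand: ggcgtccgcccgCACGTGcagccgtttaag

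Fkbp6, chr5:135350064-135350093, minus strand: gcgtctatcgatCACGTGccgtttctctcg

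Mael, chr1:166238950-166238979, minus strand: taccaggcctacCACGTGacaatccccgcc

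Slc25a31, chr3:40708766-40708795, plus strand: cgcaactggaaaCACGTGttatggtcacat

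Stk31, chr6:49395472-49395501, plus strand: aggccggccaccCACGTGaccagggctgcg

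Sycp3, chr10:88459511-88459540, plus strand: gccgttggctccCACGTGagaacgggcatg

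Taf7l, chrX:134476522-134476551, minus strand: accctcttatacCACGTGacagaactcgcc

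Tdrd9, chr12:111971382-111971411, plus strand: ggtctccataaaCACGTGcctgtccaggtc

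Total counts were 18814003 in haEpi1, 17316238 in haEpi5 and 17803421 in the haploid ESC library. A count was seen for 28812 genes in haploid ESC, 25498 in haEpi1 and 23066 in haEpi5. Mitochondrial genes took 3.83% of counts in haEpi5, against 1.30% in haEpi1 and 1.76% in haploid ESC. RNA of fibroblast marker genes was present in all 3 libraries, and whether it came from fibroblasts was not tested. The summed level of 24 fibroblast markers was 2461 CPM (counts scaled to a common library size with TMM factors) in haEpi1, 3319 in haEpi5 and 1714 in haploid ESC, which is 2.85%, 3.85% and 1.99% of the 86243 CPM in MEF. None of the 24 was at 0 in these libraries, whereas the sum was 65.3 CPM in diploid ESC. The Y-linked Ddx3y, at 69.4 CPM in MEF, lay at 8.49 CPM in haEpi1, 5.01 in haEpi5 and 2.30 in haploid ESC. It lay at 5.74 CPM in Epi_fema and 94.2 in Epi_male, and had no count in diploid ESC. Eif2s3y, Kdm5d and Uty, also Y-linked, lay between 1.76 and 6.80 CPM in the EpiSC pair and between 0.549 and 2.30 in haploid ESC.

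Trp53 (chr11:69580359-69591873, mm10), the gene named by the knockout label, was not lower in haEpi1 and haEpi5, labelled p53-KO, than in haploid ESC. It stood at 50.5 CPM in haEpi1 (95% Poisson interval 47.5 to 53.8), 61.8 in haEpi5 (58.2 to 65.6) and 28.5 in haploid ESC (26.2 to 30.9). Such intervals cover counting error only. Both EpiSC libraries lay above the ESC library, with a log2 fold change of 0.96 ± 0.84 (SE) and an adjusted p of 0.586 in edgeR's quasi-likelihood test. The haploid ESC library, labelled wild type, lay far under the diploid wild-type ESC library at 375 CPM and the haploid wild-type EpiLC library at 356 CPM. The other libraries labelled p53-KO were lower than their wild-type counterparts. Trp53 stood at 2.17 CPM in diploid p53-KO EpiSC against 36.9 and 199 in diploid wild-type EpiSC, and at 32.9 in haploid p53-KO EpiLC. The haploid EpiSC pair lay between the diploid wild-type EpiSC libraries. With the diploid ESC library in place of the haploid one the Trp53 value turned to -2.75 (adjusted p = 0.063). A gene-level count includes reads outside an edited stretch and so tests a label only in part. Of 30 p53 target genes edgeR called none, with 8 at an unadjusted p under 0.05 (6 higher and 2 lower), and DESeq2 called 6 higher. Among all genes, 4194 of 20583 had an unadjusted p under 0.05 in edgeR, and DESeq2 called 987 higher and 830 lower of 35361. The median log2 fold change of the 30 targets was 0.48, and it turned to -0.93 with the diploid ESC library. Pmaip1, a pro-apoptotic target, had the smallest p of these at 69.5 and 92.6 CPM in the EpiSC pair and 27.2 in haploid ESC (adjusted p = 0.060).

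Haploid EpiSC carried more RNA of post-implantation epiblast genes and far less of naive, germline and 2-cell-like genes than haploid ESC. Of 20583 genes tested, 872 (4.24%) passed an adjusted p of 0.05. Of these, 334 were higher in EpiSC (1.62% of genes tested) and 538 were lower (2.61%). The median log2 fold change was 3.11 among the higher and -6.64 among the lower genes, against -0.0047 over all genes tested. The smallest change that passed was 1.26 on the log2 scale, and no called gene overlapped between the sides. Without any test, 40.5% of genes were lower and 39.6% higher in both EpiSC libraries than in the ESC library. Among the 538 lower genes, 149 had no count in either EpiSC library, and among the 334 higher genes 12 had none in the ESC library. In bulk RNA, fewer cells of a type and less RNA per cell cannot be told apart. The count rests on having both EpiSC libraries. Without haEpi1 or without haEpi5 edgeR called 0 genes, with 3368 and 2553 at an unadjusted p under 0.05, against 4194 with both; DESeq2 on all 9 pluripotent libraries called 1817.

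**Figure D1:**
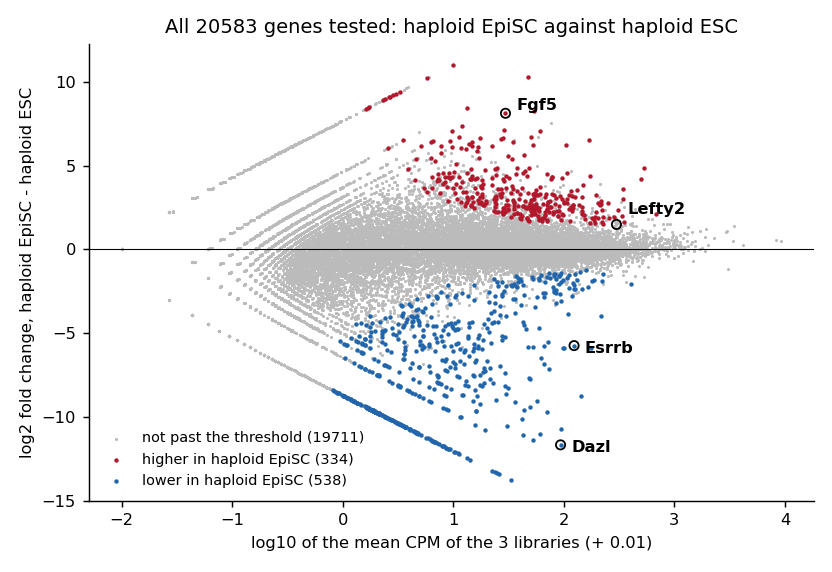
The log2 fold change (vertical axis) is plotted against the log10 mean CPM of the 3 libraries for each of the 20583 genes tested. Red points are the 334 genes higher and blue points the 538 genes lower in haploid EpiSC, grey points did not pass, and Fgf5, Lefty2, Esrrb and Dazl are ringed.

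The 4 marker genes of the comparison differed in how clearly they separated the sides. Fgf5 (chr5:98254184-98277030), an FGF ligand of the post-implantation epiblast, stood at 60.6 CPM in haEpi1, 28.1 in haEpi5 and 0.150 in haploid ESC, where it had 3 counts. The log2 ratio was 8.25 (95% counting interval 6.70 to 10.5, adjusted p = 0.00711). Lefty2 (chr1:180893108-180899103), a secreted Nodal inhibitor, stood at 469 and 293 CPM in the EpiSC pair and 134 in haploid ESC, a log2 fold change of 1.49 ± 0.61 that did not pass (adjusted p = 0.229). Lefty2 was high in haploid ESC relative to diploid ESC at 27.2 CPM, and low in diploid EpiSC at 15.1 and 40.6. Esrrb (chr12:86361117-86521628), an orphan nuclear receptor of the naive network, stood at 6.88 and 6.63 CPM against 357 (log2 fold change -5.75 ± 1.07, adjusted p = 0.0322). Dazl (chr17:50279395-50293636) had 3 counts in haEpi1 and none in haEpi5 against 279.6 CPM in haploid ESC. Its log2 ratio was -11.8 (interval -14.0 to -10.2, adjusted p = 0.00205).

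Of 24 naive pluripotency genes, 16 fell in haploid EpiSC and none rose, with a median log2 fold change of -5.77, or -4.69 with genes at 0 in EpiSC set to a bound from a floor of 3 counts per library. DESeq2 also called 16 lower, and 1 higher. The factor Nr5a2, an orphan nuclear receptor, stood at 0.151 CPM in haEpi1, 0.115 in haEpi5 and 46.6 in haploid ESC (log2 fold change -8.39 ± 0.69, adjusted p = 0.00268). Dppa5a, an RNA-binding protein of naive cells, went from 425 CPM in ESC to 0.553 and 1.498 in EpiSC (-8.73 ± 0.78). Prdm14, a repressor needed for naive cells and primordial germ cells, had 28.2 CPM in ESC and 3 counts in the EpiSC pair, all in haEpi5 (log2 ratio -8.45, interval -10.7 to -6.90). Dppa3, which protects maternal methylation marks in the zygote, had a single count in the EpiSC pair against 15.88 CPM in ESC. Tcl1, an AKT co-activator, had none in haEpi1 and 0.115 CPM in haEpi5 against 14.4 in ESC. These 5 had the largest fitted changes among the 16.

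The naive factors that kept some RNA in EpiSC fell by less. Tfcp2l1, a transcription factor downstream of LIF, went from 509 CPM in ESC to 10.5 and 6.68 (log2 fold change -5.91). Zfp42, also known as Rex1, went from 181 CPM to 1.61 and 2.42. Nanog went from 575 CPM to 20.7 and 52.9 (-3.99), and Klf4 from 82.7 CPM to 10.05 and 11.7 (-2.95). In each of these 4 genes both EpiSC libraries lay below the ESC library. The 8 members that did not pass were Klf2, Nr0b1, Fgf4, Gbx2, Pramel6, Pramel7, Spp1 and Mras. Klf2 stood at 13.7 and 6.86 CPM against 90.4 (-3.15 ± 0.87, adjusted p = 0.0992). Of 14 LIF-STAT3 pathway genes, Socs3 and Bcl3 fell. Socs3, a feedback inhibitor of the pathway, stood at 28.1 and 18.0 CPM against 209.5 (-3.20 ± 0.46, adjusted p = 0.0153). Bcl3 stood at 18.3 and 21.1 CPM against 75.9.

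Among 17 genes of general pluripotency, 1 rose and 3 fell. Pou5f1, the core pluripotency factor Oct4, stood at 458 and 510 CPM in EpiSC and 378 in ESC (log2 fold change 0.34 ± 0.32, adjusted p = 0.628), and its sign turned with the diploid ESC library (-0.86) and in a fit with additive terms for the 3 labels (-0.0704). Sox2, its partner, stood at 159 and 111 CPM against 339.7 (-1.35 ± 0.38, adjusted p = 0.103). Lin28b, which blocks maturation of let-7 miRNAs, rose from 14.03 CPM to 114 and 95.3 (2.88 ± 0.35, adjusted p = 0.00964). Dnmt3l, the cofactor of de novo methylation, fell from 143 CPM to 0.553 and 0.864 (-7.68 ± 0.42, adjusted p = 0.00163). Dppa2 and Dppa4, a pair of chromatin proteins that act together, fell from 78.1 and 48.5 CPM in ESC to at most 3.16 and 1.61 in EpiSC. Dppa2 missed the threshold in DESeq2 (adjusted p = 0.0532).

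Of 21 post-implantation epiblast genes, 10 rose in haploid EpiSC and none fell, with a median log2 fold change of 2.39. Besides Fgf5 these included Pou3f1, a POU factor also called Oct6, at 227 CPM in haEpi1 and 281 in haEpi5 against 12.2 in ESC (4.36 ± 0.46, adjusted p = 0.00709). Pim2, a serine-threonine kinase, stood at 1139 and 430.0 CPM against 26.5 (4.86 ± 0.98, adjusted p = 0.0406). Fgf15, a secreted FGF, stood at 36.4 and 20.3 CPM against 1.05. Sall2, a zinc finger factor, stood at 84.7 and 65.9 CPM against 7.39, and Zic2, a zinc finger factor of the primed state, at 167.0 and 167.1 against 25.9. In all 5 both EpiSC libraries lay above the ESC library. Some markers of the state did not pass. Otx2 stood at 56.3 and 31.9 CPM against 16.5 (adjusted p = 0.128), and Dnmt3b at 524 and 408 against 233 (adjusted p = 0.200).

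**Figure D2:**
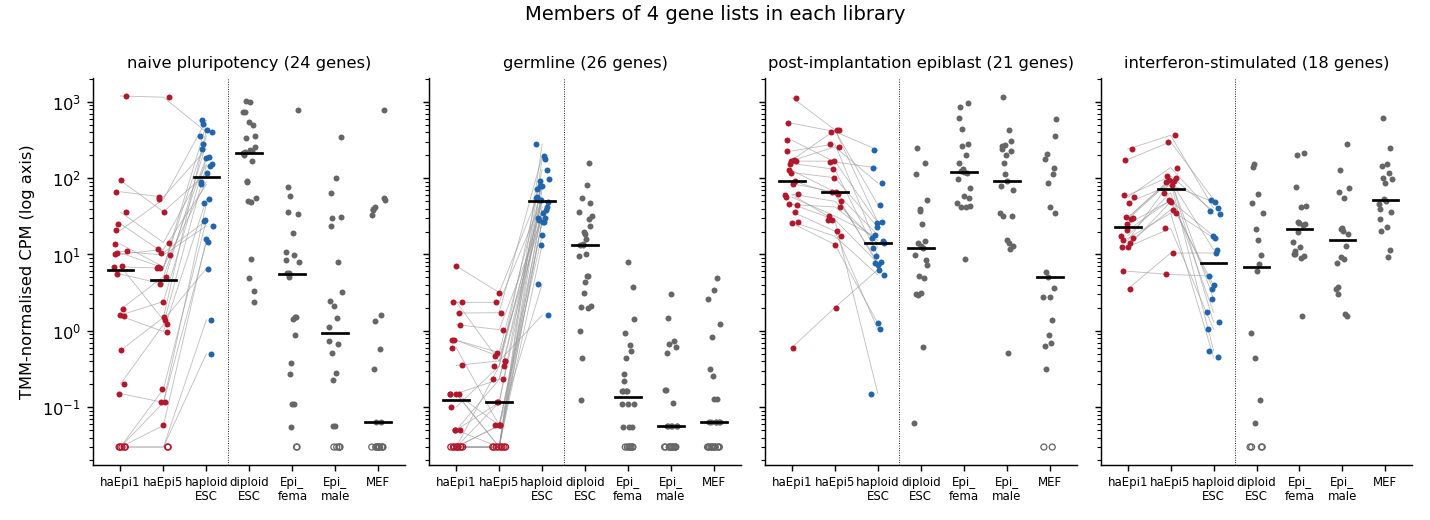
Each point is the TMM-normalised CPM (log axis) of a tested gene in a library for 4 gene lists; open points at the bottom had no count, black bars are medians, and thin grey lines join each gene across the EpiSC pair (red) and haploid ESC (blue). Grey points to the right of the dotted line are the diploid libraries and MEF. All 26 germline genes were lower in both EpiSC libraries than in haploid ESC, and 20 of the 21 post-implantation genes had a positive fold change. Over all genes tested these shares were 40.5% and 49.7%.

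In each list of signalling genes few members passed the test, while most ERK genes had a positive fold change. Of 21 Nodal pathway genes, 2 rose and none fell. Lefty1, a Nodal inhibitor, stood at 541 CPM in haEpi1 and 929 in haEpi5 against 39.2 in ESC (4.20 ± 0.56, adjusted p = 0.0130). The ligand Nodal stood at 52.8 and 55.2 CPM against 34.9 (adjusted p = 0.658), and its sign turned with the diploid ESC library (-0.43) and in the additive fit (-0.63). On log2(FPKM + 1) limma called no member of this list. Among 18 feedback genes and targets of ERK, the kinase downstream of FGF, 3 rose and none fell, against 1.62% and 2.61% of all genes. A positive fold change was seen in 15 of the 18, against 49.7% of all genes. At an unadjusted p under 0.05 in edgeR 8 were higher and none lower. DESeq2 called 6 higher and limma on log2(FPKM + 1) 1. The phosphatase Dusp6 stood at 167 and 173 CPM against 18.7 (3.16 ± 0.48), the immediate early gene Egr1 at 70.9 and 86.2 against 13.9 (2.48 ± 0.34), and Myc at 65.9 and 93.4 against 8.24 (3.25 ± 0.52). Among 16 FGF ligands and receptors, Fgf5 and Fgf15 rose and none fell, with 3 higher and 4 lower at an unadjusted p under 0.05 in edgeR. Among 16 BMP and Id genes, Bmp4 fell from 31.4 CPM to 4.37 and 4.84 (-2.79 ± 0.52, adjusted p = 0.0322). With the diploid ESC library Bmp4 no longer passed (-0.91), and the additive fit gave Bmp4 an adjusted p of 0.05575. Of 16 Wnt targets edgeR called none, with 6 at an unadjusted p under 0.05, while DESeq2 called 2 higher and 2 lower and limma on log2(FPKM + 1) 1 lower. Of 18 primitive streak genes edgeR called none, with 2 at an unadjusted p under 0.05, while DESeq2 called 2 lower and limma 1 lower. Among all genes, 4194 of 20583 had an unadjusted p under 0.05 in edgeR. DESeq2 called 987 higher and 830 lower of 35361 genes, and limma on log2(FPKM + 1) 104 and 1190 of 17395.

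Germline genes fell as a list almost without exception: 24 of 26 fell and none rose, with a median log2 fold change of -8.40, or -8.01 with genes at 0 in EpiSC set to their bound. In haploid ESC the 24 ranged from 13.4 to 279.6 CPM, and in the EpiSC pair none of them exceeded 7.08 CPM. Genes of the piRNA pathway, which silences transposons in germ cells, were among them. Fkbp6, a co-chaperone, had no count in either EpiSC library against 98.8 CPM in ESC, a log2 bound of -9.25. Mael, a factor of transposon silencing, likewise had none against 72.0 CPM (bound -8.80), and Asz1 none against 27.9 CPM (bound -7.43). Mov10l1, an RNA helicase, had 2 counts in haEpi5 against 91.9 CPM in ESC. Piwil2, a PIWI protein, kept 0.753 and 0.519 CPM against 78.3 (-6.94 ± 0.53, adjusted p = 0.00268).

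Meiotic and germ cell genes showed the same direction. Sycp3, a protein of the synaptonemal complex, stood at 0.151 and 0.0576 CPM against 18.0 (-7.33 ± 0.83, adjusted p = 0.00809). Stra8, which is needed for entry into meiosis, stood at 0.0502 and 0.230 CPM against 38.0. Ddx4, the germ cell RNA helicase Vasa, stood at 0.151 and 0.230 CPM against 54.4 (-8.14 ± 0.57). Tex19.1, a placental and germ cell protein, stood at 1.71 and 1.73 CPM against 194 (-6.84). Taf7l, an X-linked TFIID subunit of germ cells, had 3 counts in haEpi1 and none in haEpi5 against 180.3 CPM, and it did not pass in DESeq2 (adjusted p = 0.0975). Tex11, X-linked and meiotic, and D1Pas1, an autosomal germ cell helicase, had no count in EpiSC (bounds -7.38 and -8.04). The members that did not pass were Tdrd1, at 0.603 and 0.0576 CPM against 4.09, and Nanos3, at 0.352 and 0.403 against 1.598. The summed germline level was 18.1 CPM in haEpi1, 11.7 in haEpi5 and 1762 in haploid ESC. In diploid ESC it was 600.0 CPM, and 21 of the 26 genes were higher in haploid than in diploid ESC. The share of all genes tested that were higher in haploid than in diploid ESC was not taken. With the diploid ESC library in place of the haploid one 18 of the 26 were called lower, against 930 of all 20583 genes. Asz1 and Tdrd9 no longer passed, while the sign of Tdrd1 turned (1.38).

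The 2-cell-like genes, which mark a rare state of ESC that resembles the early embryo, fell in 12 of 16 cases with none higher. Zscan4d, a telomere-associated zinc finger gene, stood at 25.7 CPM in ESC and had no count in EpiSC (bound -7.31), and Zscan4c did so from 20.6 CPM (bound -6.99). Usp17le, a deubiquitinase gene, stood at 0.201 and 0.115 CPM against 38.65. The Zscan4 and Usp17l copies are nearly identical in sequence, so the split of reads among them is uncertain. The summed level of the list was 199.7 CPM in haploid ESC against 26.5 in diploid ESC. With the diploid library 6 of 16 were called lower, against 930 of all 20583 genes, with Usp17le no longer among the 2-cell-like calls. Of 10 maternal-effect and oocyte genes, 5 fell. Khdc3 and Ooep, both of the subcortical maternal complex, stood at 8.24 and 18.1 CPM in ESC. Khdc3 had no count in EpiSC (bound -5.67) and Ooep a single one, and Nlrp14 and Nlrp4f fell as well. Crxos, a homeobox gene, had none against 32.9 CPM (bound -7.67), and was at 43.3 CPM in diploid ESC.

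**Figure D3:**
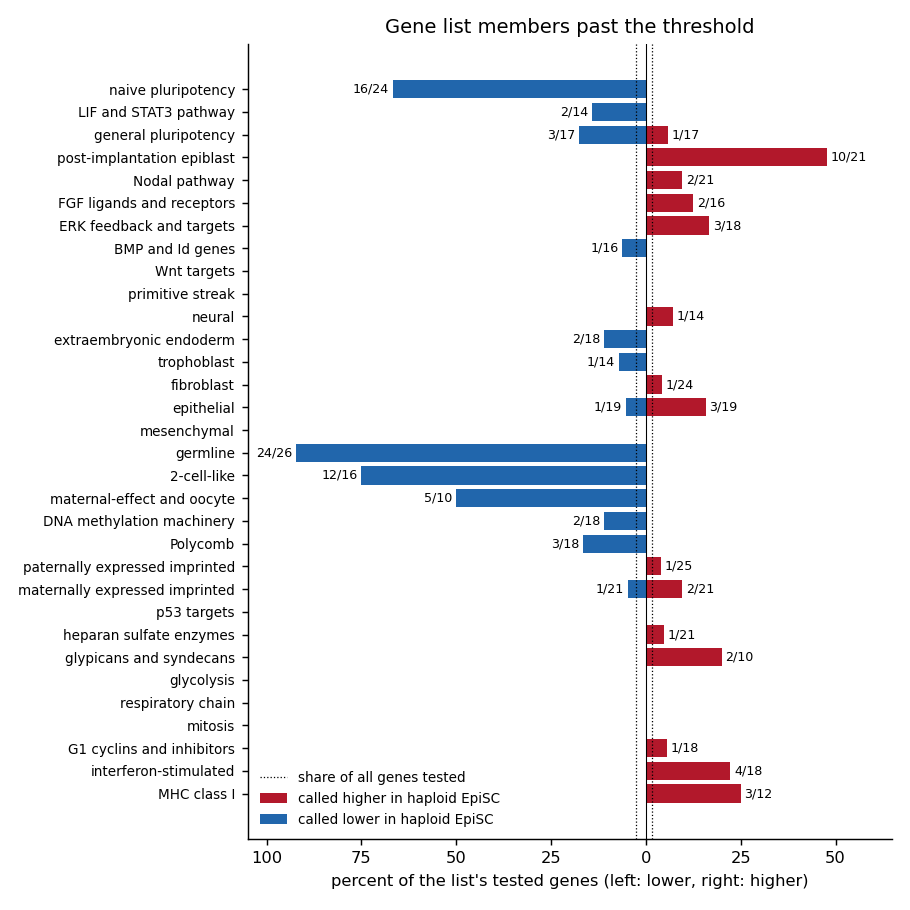
Bars give the percent of each list's tested genes that passed the test, to the right for genes higher and to the left for genes lower in haploid EpiSC, with counts beside them. Dotted lines mark the shares over all genes tested, 1.62% higher and 2.61% lower. The germline (24 of 26), 2-cell-like (12 of 16) and naive lists (16 of 24) reach farthest to the left, and post-implantation genes (10 of 21) farthest to the right.

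Chromatin genes changed at few points beside Dnmt3l. Tet2, which oxidises methylated cytosine, fell from 152 CPM to 35.9 and 14.3 (-2.62 ± 0.48, adjusted p = 0.0317). Of 18 Polycomb genes, 3 members or partners of complex 2 fell. Suz12, a core subunit, stood at 152 and 139.8 CPM against 392 (-1.45 ± 0.28), Mtf2 at 100.4 and 89.6 against 351.5 (-1.91 ± 0.29), and Epop at 64.5 and 57.9 against 198 (-1.72 ± 0.30). Of 25 paternally expressed imprinted genes 1 was called higher and none lower, against 1.62% and 2.61% of all genes. This was Nnat, a membrane protein, which rose from 14.8 CPM to 92.8 and 337.3, without passing when MEF entered the fit (adjusted p = 0.05235). Of 21 maternally expressed imprinted genes 2 rose and 1 fell. Calcr, the calcitonin receptor, rose from 0.250 CPM to 74.4 and 86.4 (8.27 ± 0.62, adjusted p = 0.00268), and Slc22a3 rose from 0.150 CPM to 8.84 and 14.1. Cobl, an actin nucleator, fell from 66.8 CPM to 8.04 and 5.13 (-3.36 ± 0.38).

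The 12 protein-coding genes with the largest fitted rise included Fgf5 and Calcr. Klhl4, X-linked, stood at 88.8 CPM in haEpi1 and 54.6 in haEpi5 against a single count in ESC (log2 ratio 10.5, interval 8.03 to 15.8). Diploid wild-type EpiSC held 5.53 and 12.2 CPM of it, and diploid p53-KO EpiSC held 61.2. Kctd12b had no count in ESC and stood at 19.2 and 10.6 CPM in EpiSC (bound 6.64), and Fut1, a fucosyltransferase, at 8.69 and 8.64 with none in ESC (bound 5.85). With the diploid ESC library Kctd12b no longer passed. The integrin Itgb8 stood at 10.6 and 29.0 CPM against a single count. Kcnj3, a potassium channel subunit, stood at 48.8 and 37.3 CPM against 0.300 (7.11 ± 0.68), and Gap43, a growth cone protein, at 71.4 and 79.2 against 0.699 (6.71 ± 0.50). The others were Lrrn1, Fndc3c1, Lypd6b and Bcl11a. Falls were ranked by the fitted value, which runs past the bound where a side has no count. Dazl, at a log2 ratio of -11.8, was therefore left out. Of the 12 genes with the largest fitted fall, all were without a count in both EpiSC libraries. Beside Fkbp6, Mael, D1Pas1, Asz1, Tex11, Crxos and Zscan4d they were Tuba3b, Tex13b, Pramel3, Fthl17d and Xlr5c, whose bounds lay between -8.90 and -7.41. Pramel3, Fthl17d and Xlr5c belong to families of near-identical copies and their counts are uncertain; Pramel3 did not pass with the diploid ESC library.

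Lists of other cell types gave few calls in edgeR, apart from the epithelial list with 3 higher and 1 lower of 19. Over all genes tested 1.62% were called higher and 2.61% lower, and 4194 of 20583 had an unadjusted p under 0.05. DESeq2 called 987 higher and 830 lower of 35361 genes, and limma on log2(FPKM + 1) 104 and 1190 of 17395. Of 14 neural genes Nes, an intermediate filament protein, rose from 80.4 CPM to 378 and 461 (2.36 ± 0.37). Of 18 extraembryonic endoderm genes Gata4 fell from 5.94 CPM to 0.301 and 0.288, and Lama1 from 57.4 to 6.68 and 1.67. Gata4 no longer passed with the diploid ESC library. Of 14 trophoblast genes Tead4 fell from 71.8 CPM to 24.2 and 19.6, a call lost with the diploid ESC library, in the additive fit and with MEF in the fit. Of 24 fibroblast genes Mmp2, a matrix metalloproteinase, rose from 15.5 CPM to 62.1 and 79.3 (2.17 ± 0.40). Col1a1, a collagen of fibroblasts, stood at 285 and 586 CPM in EpiSC, 594 in haploid ESC and 24560 in MEF, and was chosen here after its values were seen. Its log2 fold change of -0.47 turned to 8.0007 with the diploid ESC library. With the diploid ESC library 19 of the 24 fibroblast genes were called higher, against 1378 of all 20583 genes. With the haploid ESC library DESeq2 called 5 of the 24 higher and limma on log2(FPKM + 1) none. Of 19 epithelial genes Rab25, Esrp1 and Ocln rose and Grhl3 fell, with 11 higher and 1 lower at an unadjusted p under 0.05 in edgeR. DESeq2 called 9 of them higher and 1 lower, and limma on log2(FPKM + 1) none higher and 1 lower. Rab25 did not pass with MEF in the fit (adjusted p = 0.05148). Esrp1, a splicing regulator of epithelia, stood at 92.3 and 141.5 CPM against 12.03 (3.26 ± 0.44). Grhl3 stood at 7.38 and 5.36 against 58.8 (-3.23 ± 0.47). Of 14 mesenchymal genes edgeR called none, with 6 at an unadjusted p under 0.05, DESeq2 called 4 higher and limma on log2(FPKM + 1) none.

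Of 18 interferon-stimulated genes 4 rose in haploid EpiSC and none fell. Usp18, a feedback inhibitor of interferon signalling, stood at 29.8 CPM in haEpi1, 99.3 in haEpi5 and 1.30 in haploid ESC (5.61 ± 0.93, adjusted p = 0.0232). Isg15, a ubiquitin-like modifier, stood at 30.6 and 94.7 CPM against 2.65, Ifit2 at 12.6 and 22.0 against 1.05, and Bst2, which tethers budding virus, at 240 and 365 against 40.6. Of the 18 genes 17 were higher in haEpi5 than in haEpi1. Among autosomal genes of at least 1 CPM in the 3 libraries, the median log2 ratio of haEpi5 to haEpi1 was 0.05. In the direction opposite to the 17 genes, 45.6% of these autosomal genes were lower in haEpi5. The summed level of the 18 interferon-stimulated genes was 811 CPM in haEpi1, 1694 in haEpi5 and 289 in haploid ESC. It was 90.6% of the MEF sum in haEpi5, where the fibroblast marker sum was 3.85% of that in MEF. Mitochondrial counts were highest in haEpi5 too, and the part of either in these genes was not tested. DESeq2 called 11 of the 18 higher, limma on log2(FPKM + 1) called none, and the additive fit called 2, without Usp18 and Isg15. Among all genes DESeq2 called 987 of 35361 higher, limma 104 of 17395 and the additive fit 990 of 18659. Of 12 MHC class I genes 3 rose, the classical H2-K1 from 81.3 CPM to 232 and 256 (1.56 ± 0.31), H2-D1 from 74.7 to 202 and 244, and H2-Q4 from 11.6 to 43.3 and 45.5. H2 genes are close copies, so the split of reads among them is uncertain. With the diploid ESC library 8 of 12 were called higher, against 1378 of all 20583 genes.

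Heparan sulfate is the sugar chain that binds FGF at the cell surface. Of 21 of its enzymes 1 rose, and of 10 core proteins (glypicans and syndecans) 2 rose, with none lower in either list. The share called higher was 1.62% of all genes tested. Sulf1, which removes 6-O-sulfate, rose from 25.1 CPM to 86.7 and 79.1 (1.70 ± 0.31, adjusted p = 0.0309), a call lost with the diploid ESC library. The core proteins Gpc1 and Sdc2 rose from 28.8 and 10.8 CPM in ESC to at least 147.6 and 58.9 in EpiSC. Hs3st3b1 (chr11:63885792-63922290), which adds 3-O-sulfate and which the series is titled after, stood at 3.62 CPM in haEpi1, 1.15 in haEpi5 and 7.34 in haploid ESC. It did not pass (-1.64 ± 1.45, adjusted p = 0.592). Among 18 G1 genes 1 rose and none fell. This was Cdk6, which rose from 27.3 CPM to 158 and 164 (2.54 ± 0.36), a call lost with the diploid ESC library. Of 22 glycolysis genes edgeR called none, with 3 at an unadjusted p under 0.05, and DESeq2 called 1 higher. Of 23 respiratory chain and 22 mitosis genes edgeR and DESeq2 called none, with 0 and 2 at an unadjusted p under 0.05 in edgeR. On log2(FPKM + 1) limma called none of these 3 lists. Among all genes, 4194 of 20583 had an unadjusted p under 0.05 in edgeR, and DESeq2 called 987 higher and 830 lower of 35361.

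The EpiSC-ESC difference among haploid libraries was then set beside that among diploid wild-type libraries, which share no library with it. Both differences were tested in the same fit with a common estimate of spread, so their calls are not independent. In the diploid comparison 1974 genes were called (9.59% of those tested), 1144 higher and 830 lower in EpiSC. Of the 334 genes higher in haploid EpiSC, 279 were also called higher in diploid EpiSC (83.5% of the haploid and 24.4% of the diploid list). Of the 538 lower genes, 380 were also called lower (70.6% and 45.8%). No member of the 32 lists passed edgeR's test of the difference. That test called 2 genes (0.00972% of those tested), with 1293 at an unadjusted p under 0.05. Thbs1, a matrix glycoprotein, stood at 706 and 980 CPM in haploid EpiSC and 764 in haploid ESC, but at 557 and 1088.5 in diploid EpiSC and 0.435 in diploid ESC. The differences differed by -10.7 ± 0.88 (adjusted p = 0.0442). Csf1, a macrophage growth factor, stood at 301 and 228 CPM against 135 in the haploid and at 136 and 124 against 0.373 in the diploid libraries, a difference of -7.45 ± 0.57 with the same adjusted p. In MEF Thbs1 was at 3068 and Csf1 at 327 CPM. With MEF in the fit, or without either haploid EpiSC library, no gene was called. Whether fibroblast RNA had a part in these values was not tested.

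**Figure D4:**
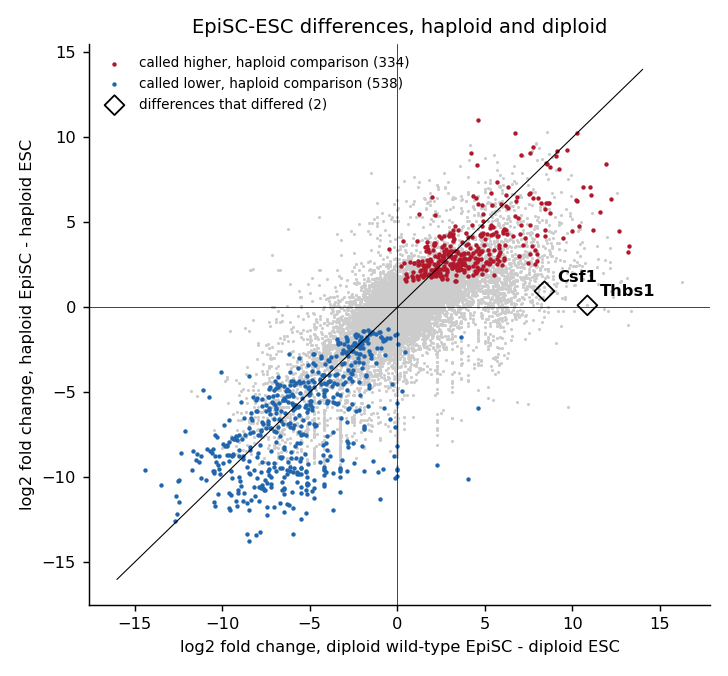
Each point is a gene tested, with its log2 fold change between diploid wild-type EpiSC and diploid ESC on the horizontal axis and between haploid EpiSC and haploid ESC on the vertical axis; the line marks equal values. Of the 334 genes called higher (red) 333 had a positive diploid value, and of the 538 called lower (blue) 526 had a negative one. Over all genes tested 51.0% had a positive diploid value. Thbs1 and Csf1 (diamonds) lie far to the right at a haploid value near 0 or 1.

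The EpiSC lines differed from each other as well. Of the genes tested, 3816 (18.5%) were at least 2-fold apart between haEpi1 and haEpi5, with 1 library each and no test. Among genes of at least 1 CPM in the 3 libraries, 388 of 470 X-linked genes (82.6%) were lower in haEpi5 than in haEpi1, against 5739 of 12596 autosomal genes (45.6%). The median log2 ratio of haEpi5 to haEpi1 was -0.47 on the X and 0.05 on the autosomes. Against haploid ESC the X median was 0.13 in haEpi1 and -0.30 in haEpi5. Xist, the RNA that coats an inactive X, stood at 39.1 CPM in haEpi1, 168 in haEpi5 and 82.3 in haploid ESC, and its antisense partner Tsix cannot be separated without strand. In MEF it was at 754 CPM. Mitochondrial genes had a median log2 ratio of 1.19 between the lines, with haEpi5 higher.

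**Figure D5:**
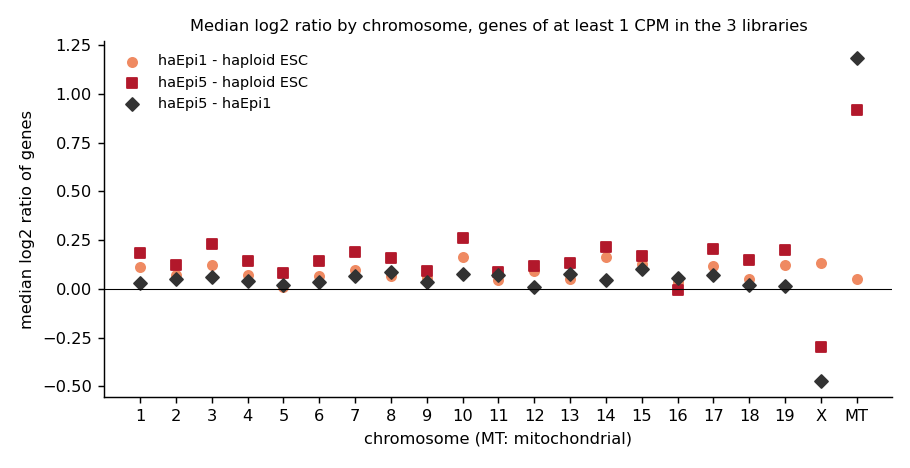
For each chromosome the median log2 ratio of genes with at least 1 CPM in the 3 libraries is plotted for haEpi1 against haploid ESC (circles), haEpi5 against haploid ESC (squares) and haEpi5 against haEpi1 (diamonds). On the X the median is -0.30 in haEpi5 and 0.13 in haEpi1 against haploid ESC, and on the mitochondrial chromosome haEpi5 stands apart.

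X-linked genes were also frequent among those that fell. Of 840 X-linked genes tested 88 (10.5%) fell and 24 (2.86%) rose, against 2.61% and 1.62% of all genes. They made up 16.4% of the genes that fell and 4.08% of those tested. The X-linked Tex11, Tex13b and Taf7l were among them. Of single genes, A2m stood at 19.5 CPM in haEpi1 and 0.230 in haEpi5, and Ndufa4l2, a hypoxia-responsive mitochondrial protein, at 28.2 and 1.33. In the other direction Cdcp1, a surface glycoprotein, stood at 0.251 CPM in haEpi1 and 94.0 in haEpi5, and Arc, a neuronal immediate early gene, at 2.46 and 51.6. In haploid ESC Cdcp1 was at 4.34 and Arc at 22.0 CPM, between the lines in both cases. The other genes far apart were Sncb, Grin1 and Trank1, higher in haEpi1, and Il1b, Acer2 and Ldoc1, higher in haEpi5.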

How the data were processed

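RNA of 10 libraries was sequenced, and 3 of them are compared here. The authors deposited whole-number counts per gene, made with HISAT2 2.0.5 and featureCounts 1.5.0-p3 on mm10, per the submitters' processing notes. Strand and annotation are not given in the sources used here. The authors also deposited FPKM, which equalled counts over length and 1 constant per library and served an alternative test. Counts were tested in R 4.3.3 with edgeR 4.0.16 (filterByExpr, TMM, quasi-likelihood F test, Benjamini-Hochberg adjusted p under 0.05), in 1 fit of the 9 pluripotent libraries with a mean per group. This leaves 2 residual degrees of freedom, from the 2 haploid and the 2 diploid wild-type EpiSC libraries, and lone libraries were assumed to vary like these. SE is the absolute log2 fold change over the square root of F. Levels are CPM with TMM factors over all 10 libraries. A side at 0 was set to a floor of 3 counts per library to give a bound, and sides of 1 to 3 counts got a ratio with an exact 95% counting interval. Ratios between single libraries used a prior count of 2. The test was tested on simulated data. All simulated libraries were drawn with the fitted spread, so this cannot check the spread assumed for lone libraries.

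DESeq2 1.42.0, limma 3.58.1 on log2(FPKM + 1) and other filters, scalings, library sets and designs were alternatives. The diploid ESC library in place of the haploid one was added after seeing the data. The additive fit had terms for cell type, p53 label and ploidy. Named genes were 11 fixed genes, the 12 per direction with the largest change among called protein-coding genes of at least 5 CPM without overlap or predicted names, up to 5 called members per list (else the 2 smallest p) with further members of a pathway, the genes of the haploid-diploid test and 5 per direction between the EpiSC lines. The members and the 32 lists were chosen with earlier results of these data known. A called gene is counted in its list but not reported here.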

Additional observations from a re-analysis of the deposited data

Results flagged for a closer look

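The EpiSC-ESC difference of 2 genes differed between the haploid and the diploid libraries by a test of that difference. It was -7.45 for Csf1 and -10.7 for Thbs1 on the log2 scale. Both were near 0 in diploid ESC, at 0.373 and 0.435 CPM, and at 135 and 764 CPM in haploid ESC, which also held 1714 CPM of fibroblast markers against 65.3 in diploid ESC. No group had the 4 libraries needed to look for a single library far from the others.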

How the results depend on the processing

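Genes called between haploid EpiSC and haploid ESC numbered 872, 869 with DESeq2 size factors, 770 with MEF in the fit and 985 with limma on log2(FPKM + 0.1). The count moved to 2689 without the low-count filter, 1817 with DESeq2, 2391 with only the 3 libraries, 2243 in the additive fit, 2308 with the diploid ESC library (chosen after seeing the data), and 5369 with limma on log2(FPKM + 1) without a filter. Leaving out 1 library gave 0 (either haploid EpiSC library) to 2666. The share of calls that were higher was 38.3%, but 8.04% of the 1294 with limma on log2(FPKM + 1), 11.4% with the pseudocount of 0.1, 6.24% without a filter, 54.3% with DESeq2 and 59.7% with the diploid ESC library.

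For the haploid-diploid difference the 2 calls became 383 without the low-count filter, 207 with DESeq2, 665 with limma on log2(FPKM + 1), 500 with the pseudocount of 0.1, 4893 without a filter and 0 with MEF in the fit (1272 at an unadjusted p under 0.05). Leaving out 1 library gave 0 (1224 without haEpi1 and 779 without haEpi5 at an unadjusted p under 0.05) to 227. The cause of these moves was not tested.

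Signs turned for Trp53 (-0.64 in the additive fit, -2.75 with the diploid ESC library), Pou5f1 (-0.0704 and -0.86), Nodal (-0.63 and -0.43) and Xist (-0.0161 on log2(FPKM + 1), with or without a filter, -0.0799 at 0.1, and -1.09 without haEpi5 to 1.05 without haEpi1), Tdrd1 (1.38 with the diploid ESC library) and Col1a1 (0.0789 in the additive fit, 8.0007 with the diploid ESC library, and from -1.08 without haEpi5 to 0.0009 without haEpi1). Of 94 called genes named here, no sign turned under any alternative; 94 kept the call with DESeq2 size factors, 92 with DESeq2, 57 with limma on log2(FPKM + 1), 84 with the diploid ESC library and 0 without either haploid EpiSC library. No paired analysis was possible because the compared groups share fewer than 2 replicate numbers, the ESC side being 1 library.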
